A study of Mus musculus with 37 samples.

Results

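Transcripts of 8 potassium channel genes were followed in the left ventricle of mice after cardiac arrest or adrenaline alone. The genes, Kcnd2, Kcnd3, Kcnip2, Kcna5, Kcnj2, Kcnj11, Kcnq1 and Kcnh2, were taken by symbol as a set of subunits of the known repolarizing currents of the heart, and all 8 were found among the 56748 genes of the deposited table. Bulk RNA sequencing gave 37 libraries in 9 groups, with 5 Naïve libraries and 4 in each other group. All animals were male and female C57BL/6J mice of 8 to 10 weeks that had isoflurane anaesthesia. Naïve mice had no injection. Adr mice, which the sample labels call sham, were ventilated and had saline injected into the left ventricle followed by adrenaline in the ventricle. Arrest mice had potassium chloride injected instead, remained in asystole for 8 min, and were resuscitated with adrenaline and chest compressions. Adr and Arrest hearts were collected after 0.5, 1, 3 or 7 days, so the arrest, the potassium load and the resuscitation were not separated by the design. Naïve hearts had a single collection time and no ventilation or injection. The apex was discarded, and each library came from left ventricular tissue that holds all of its cell types.

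Potassium channels end the cardiac action potential by carrying outward current, and Kcnj2 channels also hold the resting potential. In the mouse ventricle, repolarization relies mainly on the fast transient outward current and on delayed rectifiers that act within the short action potential. The slow and rapid delayed rectifiers of Kcnq1 and Kcnh2 carry most repolarization in large mammals and little in the adult mouse. Lower transient outward current, often with lower Kcnip2, is a common feature of diseased ventricle.

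The genes of the fast transient outward current are shown by their promoters, since Kcnd2 held the single difference that passed the test and Kcnip2 the only groups that did not overlap with Naïve. The letters are the 250 bases before the RefSeq start in GRCm38.p6, read 5′ to 3′ on the strand of the gene, with the GC box GGGCGG in capitals. Matched promoters were held by 6 of the 8 genes. The bases after the RefSeq start were found in a transcript for Kcnip2, but not for Kcnd2 or Kcnd3.
Kcnd2, chr6:21215096-21215345, plus strand: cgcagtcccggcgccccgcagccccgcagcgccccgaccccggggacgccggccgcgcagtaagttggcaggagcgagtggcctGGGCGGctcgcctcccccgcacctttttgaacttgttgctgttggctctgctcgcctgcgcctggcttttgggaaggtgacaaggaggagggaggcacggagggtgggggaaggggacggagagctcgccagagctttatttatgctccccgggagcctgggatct
Kcnd3, chr3:105451640-105451889, plus strand: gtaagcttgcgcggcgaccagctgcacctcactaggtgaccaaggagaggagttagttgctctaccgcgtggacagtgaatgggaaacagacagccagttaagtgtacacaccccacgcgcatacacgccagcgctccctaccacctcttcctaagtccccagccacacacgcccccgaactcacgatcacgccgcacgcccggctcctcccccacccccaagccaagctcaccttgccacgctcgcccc
Kcnip2, chr19:45816064-45816313, minus strand: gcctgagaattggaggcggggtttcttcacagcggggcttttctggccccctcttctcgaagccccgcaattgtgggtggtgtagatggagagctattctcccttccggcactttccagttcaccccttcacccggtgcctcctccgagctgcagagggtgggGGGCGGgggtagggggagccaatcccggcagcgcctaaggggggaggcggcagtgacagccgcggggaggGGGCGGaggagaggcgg

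Kcnd2 held 1 GC box, Kcnip2 held 2 and Kcnd3 held 0 in these windows, searched on both strands. The GC box was present in 32.7% of 32851 promoters of the same length. G and C made up 68.8% of the Kcnd2 window, 62.8% of the Kcnd3 window and 66.8% of the Kcnip2 window, and the median over all promoters was 52.4%. None of the 3 windows held the E box CACGTG, the TATA box TATAAA or the CRE TGACGTCA, which were present in 6.02%, 12.4% and 1.55% of the promoters. A match describes the letters only.

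Values are the deposited FPKM, fragments scaled to gene length and by a factor per library, so levels can be set beside one another between genes. The median-ratio factor was 1.0131 in every library, so the scaling is not to counted fragments alone. Levels are in this scaling, and their order after scaling to counted fragments was not examined. Between 13.2 and 30.2 M fragments were counted on genes per library, and Kcnd3, the least covered of the 8 genes, had 76 to 416 fragments. Differences were tested with limma on log2(FPKM + 1), with p-values adjusted over all 16579 genes tested and a threshold of 0.05. All 8 genes passed the filter on low values. One library, Adr replicate 3 at 3 days, stood apart from the rest. Mitochondrial genes took 9.36% of its fragments and 20.8 to 30.9% in the other 36 libraries. The summed FPKM of 8 cardiomyocyte markers was 3793 there and at least 8650 elsewhere, while 5 monocyte and macrophage markers summed to 2236 there and to at most 1023 elsewhere. As deposited, it held the lowest level of all 37 libraries for Kcnip2, Kcna5, Kcnj11 and Kcnh2, at 8.997, 4.72, 8.01 and 6.80 FPKM. Results are therefore given with and without it. In bulk tissue, fewer cells of a type and less RNA per cell cannot be told apart.

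Kcnip2 and Kcnj11 were the most abundant of the 8 transcripts and Kcnd3 the least. Naïve levels (mean ± SD, n = 5) were 37.3 ± 4.13 FPKM for Kcnip2, 32.6 ± 5.70 for Kcnj11, 12.6 ± 2.97 for Kcnh2, 12.2 ± 2.61 for Kcna5, 6.70 ± 1.08 for Kcnq1, 5.08 ± 1.17 for Kcnd2, 4.32 ± 1.89 for Kcnj2 and 1.30 ± 0.398 for Kcnd3. Kcnh2 and Kcna5 did not differ beyond their spread, nor did Kcnd2 and Kcnj2. When the 9 groups were ordered by mean for each gene, all 64 neighbouring pairs overlapped. This count was not taken for all genes, so it only describes the spread. Apart from Kcnip2, no gene had a group whose libraries all lay on the same side of the Naïve range. Kcnq1 in Adr at 1 day had 3 libraries below that range and 1 above it.

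**Figure D1:**
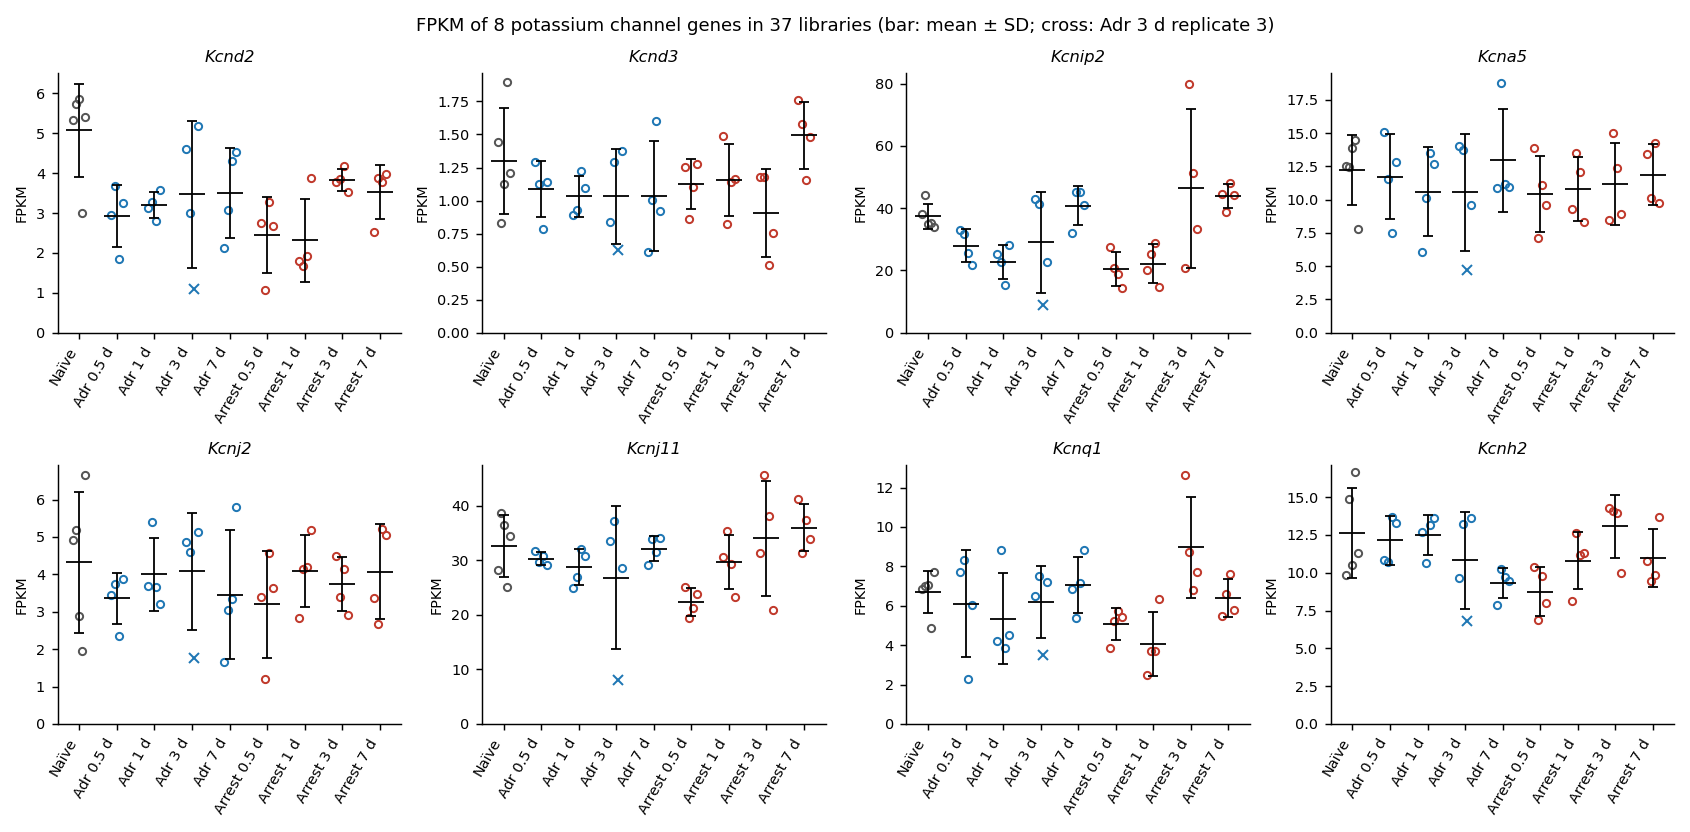
FPKM of each potassium channel gene (y axis, from 0) in each library, by group (x axis). Open circles are libraries, the cross is Adr replicate 3 at 3 days, and bars give the mean ± SD of 5 Naïve or 4 other libraries, the cross included. Kcnd2 is highest in Naïve by mean, and Kcnip2 is below the Naïve range in both arms at 0.5 and 1 days.

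Of 112 gene comparisons, 8 genes in 14 comparisons, 1 passed the test with all libraries and 5 passed without Adr replicate 3 at 3 days. At an unadjusted p of at most 0.05 there were 18. Against Naïve, the counts have to be read beside the share of all tested genes that passed. With all libraries, 0 of the 8 genes passed in Adr hearts on each day, where in order of time 0.187%, 0.627%, 0% and 0% of all genes did. In Arrest hearts, 0, 1, 0 and 0 of the 8 passed, beside 3.2%, 7.11%, 0.139% and 0% of all genes. The 1 call of 8 at 1 day is thus near the share of all genes.

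Directions were more uniform than calls at the early times. The log2 difference from Naïve was below 0 for 8, 7, 8 and 5 of the 8 genes in Adr hearts and for 8, 8, 4 and 5 in Arrest hearts, in order of time. Some of these differences were close to 0, such as Kcnj2 at -0.0018 in Arrest at 1 day and Kcnh2 at -0.036 in Adr at 0.5 days. Among all tested genes, 43.6 to 46.6% were below 0 in these comparisons. The median difference of the 8 genes was -0.41 in Arrest at 0.5 days, beside 0.03 over all genes, and -0.18 in Arrest at 1 day. The count in Adr at 3 days rested on replicate 3, and without it 4 of the 8 genes were below 0 and their median went from -0.25 to -0.0040. All 8 comparisons used the same 5 Naïve libraries.

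Kcnd2 encodes Kv4.2, the main pore of the fast transient outward current in mouse ventricle. Naïve libraries held 5.35, 5.74, 5.86, 3.01 and 5.41 FPKM, and Arrest libraries at 1 day held 1.79, 1.68, 1.92 and 3.87. Replicates 1 to 3 were below the lowest Naïve library, and replicate 4 was within the Naïve range. The Arrest mean was 2.32 ± 1.04 FPKM (SD, n = 4), 45.6% of the Naïve mean. Kcnd2 fell by 0.89 on the log2 scale (SE 0.25, 95% interval -1.39 to -0.39, limma adjusted p = 0.0234), and without Adr replicate 3 at 3 days the adjusted p was 0.00542.

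This difference was not called in every fit. Leaving out Arrest replicate 1, 2 or 3 raised the adjusted p to 0.0807, 0.0772 or 0.0794, and leaving out replicate 4 gave -1.09 with 0.00812. A fit of the compared groups alone gave 0.0614, and voom on the recovered fragments gave 0.062. The sample descriptions hold a number, of unstated meaning, that was 116 to 127 in Naïve and 70 to 95 in Arrest at 1 day. With that number as a covariate the difference was -0.31 (adjusted p = 0.766), so the group and the number cannot be told apart.

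**Figure D2:**
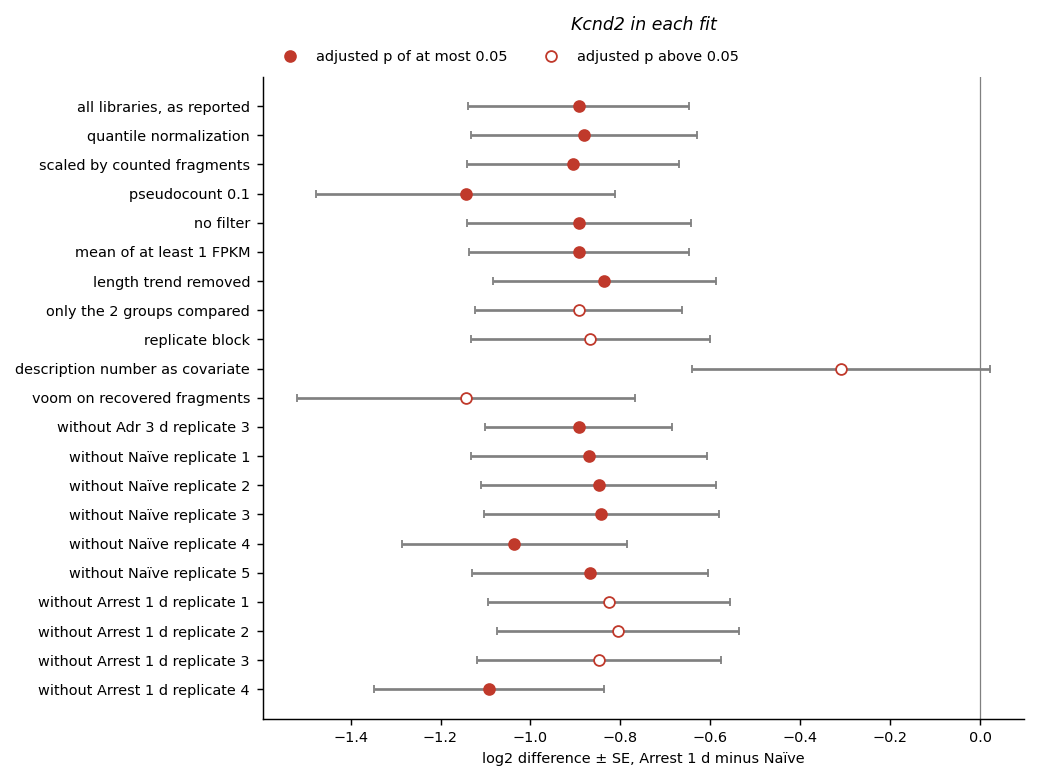
Log2 difference of Kcnd2 between Arrest at 1 day and Naïve (x axis, point ± SE) in each fit (y axis). Filled points have an adjusted p of at most 0.05. All fits lie below 0, from -1.14 to -0.31, and the filled points are those with all libraries, without Adr replicate 3 at 3 days, without any 1 Naïve library, without Arrest replicate 4 and under 6 other settings.

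The other groups were also low in Kcnd2 but did not pass. Arrest libraries at 0.5 days held 2.76, 1.08, 3.27 and 2.69 FPKM, with replicate 3 alone within the Naïve range. Their difference was -0.84 (SE 0.25, adjusted p = 0.0518), and without Adr replicate 3 at 3 days it passed with 0.0151. Adr libraries held 1.85 to 3.67 FPKM at 0.5 days and 2.81 to 3.58 at 1 day, and their means were 57.7% and 63% of Naïve. The differences there were -0.63 (adjusted p = 0.234) and -0.51 (adjusted p = 0.327). At 3 and 7 days, Arrest means were 3.83 ± 0.266 and 3.53 ± 0.680 FPKM, both below Naïve and overlapping with it.

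Adr hearts at 3 days had a mean of 3.47 ± 1.84 FPKM of Kcnd2, and 4.27 ± 1.13 without replicate 3. The difference from Naïve changed from -0.53 (adjusted p = 0.33) to -0.20 (adjusted p = 0.892) with that omission. Adr hearts at 7 days had 3.51 ± 1.12 FPKM. Naïve replicate 4, at 3.01 FPKM, was well below the other Naïve libraries, and the difference in Arrest at 0.5 days passed without it, as it did without Arrest replicate 3.

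Kcnip2 encodes KChIP2, the calcium-binding subunit that brings Kv4 channels to the membrane and is required for the fast transient outward current. Naïve libraries held 38.2, 44.1, 35.1, 35.2 and 34.0 FPKM. Arrest libraries held 27.6, 20.9, 19.0 and 14.4 FPKM at 0.5 days and 19.96, 25.2, 28.9 and 14.5 at 1 day. Every one of these 8 libraries was below every Naïve library. The same held in Adr hearts, with 32.9, 31.6, 25.7 and 21.7 FPKM at 0.5 days and 25.2, 22.8, 15.2 and 28.0 at 1 day. Kcnip2 was 1 of the 8 genes with all libraries below Naïve in each of these groups, where the same was true of 3.7% and 4.8% of all tested genes in Arrest and of 2.96% and 2.73% in Adr, at 0.5 and 1 days.

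Means of Kcnip2 were 54.8% and 59.4% of Naïve in Arrest at 0.5 and 1 days, and 75.0% and 61.0% in Adr. None of these passed with all libraries. The difference was -0.87 in Arrest at 0.5 days (SE 0.31, limma adjusted p = 0.12) and -0.76 at 1 day (adjusted p = 0.137), beside -0.72 in Adr at 1 day (adjusted p = 0.273). Without Adr replicate 3 at 3 days, the Arrest difference at 0.5 days passed (adjusted p = 0.0391) and that at 1 day was at 0.0506. Both passed when only the compared groups were fitted, with 0.0364 and 0.0496, a fit whose error does not include the 3-day groups.

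That spread was large for Kcnip2. Arrest libraries at 3 days held 20.9, 79.8, 51.3 and 33.4 FPKM, from below the Naïve range to above it. Adr libraries at 3 days held 42.9, 41.3, 8.997 and 22.7 FPKM. At 7 days the levels were even again, with 44.6, 38.8, 48.0 and 44.1 FPKM in Arrest and 31.9, 45.1, 45.0 and 41.1 in Adr, overlapping with Naïve.

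Within the arms, Kcnip2 was the 1 gene of the 8 with every library at 1 day below every library at 7 days, in Arrest and in Adr. This was true of 6.32% of all tested genes in Arrest and of 3.3% in Adr. In the other direction, Kcnh2 in Adr was the 1 gene with every library at 1 day above those at 7 days, beside 3.27% of all tested genes. The Kcnip2 difference between 1 and 7 days was -0.99 in Arrest (SE 0.33, limma adjusted p = 0.114) and -0.83 in Adr (SE 0.33, adjusted p = 0.377). These comparisons do not use the Naïve libraries. For Arrest, 0 of the 8 genes passed with all libraries, beside 1.88% of all genes, and without Adr replicate 3 at 3 days Kcnip2 alone passed (adjusted p = 0.0291), beside 3.97%. For Adr, 0 of the 8 passed in both fits, beside 0.0422% and 0.383% of all genes.

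Kcnd3 encodes Kv4.3, the other Kv4 pore of the complex. Its group means ran from 0.905 ± 0.330 FPKM in Arrest at 3 days to 1.49 ± 0.254 in Arrest at 7 days, and the Naïve libraries alone ran from 0.827 to 1.89. No comparison of Kcnd3 reached an unadjusted p of 0.05. The ratio of Kcnd2 to Kcnd3 in the same library had a mean log2 value of 1.98 ± 0.804 in Naïve, 1.03 ± 0.519 in Arrest at 0.5 days and 0.948 ± 0.612 at 1 day (SD). These ratios overlapped between groups, since Naïve replicate 4 had low Kcnd2 and the highest Kcnd3 and its ratio was 0.669. The log2 ratio of Kcnip2 to Kcnd2 was 2.91 ± 0.384 in Naïve and was highest at 7 days, at 3.59 ± 0.360 in Adr and 3.65 ± 0.356 in Arrest.

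Kcna5 encodes Kv1.5, a pore of the ultrarapid delayed rectifier current. Its means lay between 10.4 and 12.9 FPKM in all 9 groups, against 12.2 in Naïve, and no comparison reached an unadjusted p of 0.05. Naïve replicate 5 was low at 7.82 FPKM, and Adr replicate 2 at 7 days was high at 18.8. Kcnj2 encodes Kir2.1, a main pore of the inward rectifier that sets the resting potential. Its means lay between 3.20 and 4.32 FPKM, apart from 4.86 in Adr at 3 days when replicate 3 was left out, with a wide Naïve range of 1.95 to 6.66, and it too had no comparison at that level.

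Kcnj11 encodes Kir6.2, the pore of the sarcolemmal ATP-sensitive potassium channel, which opens when ATP falls. Naïve libraries held 28.2, 38.6, 36.5, 25.1 and 34.4 FPKM, and Arrest libraries at 0.5 days held 25.2, 19.5, 21.2 and 23.7. Replicates 2 to 4 of Arrest were below the Naïve range, and replicate 1 was level with the lowest Naïve library. The mean was 68.8% of Naïve, and the difference was -0.51 (SE 0.25, limma adjusted p = 0.274). It passed without Adr replicate 3 at 3 days, with an adjusted p of 0.0441. At 1 day the Arrest mean was back at 29.7 ± 5.01 FPKM.

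Kcnq1 encodes the pore of the slow delayed rectifier. Naïve libraries held 6.84, 7.01, 7.05, 4.87 and 7.74 FPKM, and Arrest libraries at 1 day held 2.50, 3.70, 3.71 and 6.35. Replicates 1 to 3 were below the Naïve range and replicate 4, which was also the highest of its group in Kcnd2, was within it. The difference was -0.64 (SE 0.25, limma adjusted p = 0.113), and without replicate 4 it passed with -0.84 (adjusted p = 0.044). Against Arrest at 7 days the difference was -0.59 (adjusted p = 0.283). The highest group was Arrest at 3 days, at 8.96 ± 2.58 FPKM. Kcnq1 shares its locus with the antisense transcript Kcnq1ot1, whose group means were 0.0599 FPKM in Naïve and 0.108 in Arrest at 1 day, and the strand that was counted is not stated.

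Kcnh2 encodes ERG, the pore of the rapid delayed rectifier. Naïve libraries held 9.85, 14.9, 10.5, 16.7 and 11.3 FPKM, and Arrest libraries at 0.5 days held 10.4, 6.85, 9.79 and 8.003. The difference was -0.47 (SE 0.17, limma adjusted p = 0.115). Kcnh2 was also low in Adr at 7 days, at 7.89, 10.3, 9.69 and 9.46 FPKM beside 10.6 to 13.6 in Adr at 1 day, with a difference from Naïve of -0.38 (adjusted p = 0.782) and from Adr at 1 day of 0.39 in favour of 1 day (adjusted p = 0.475).

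**Figure D3:**
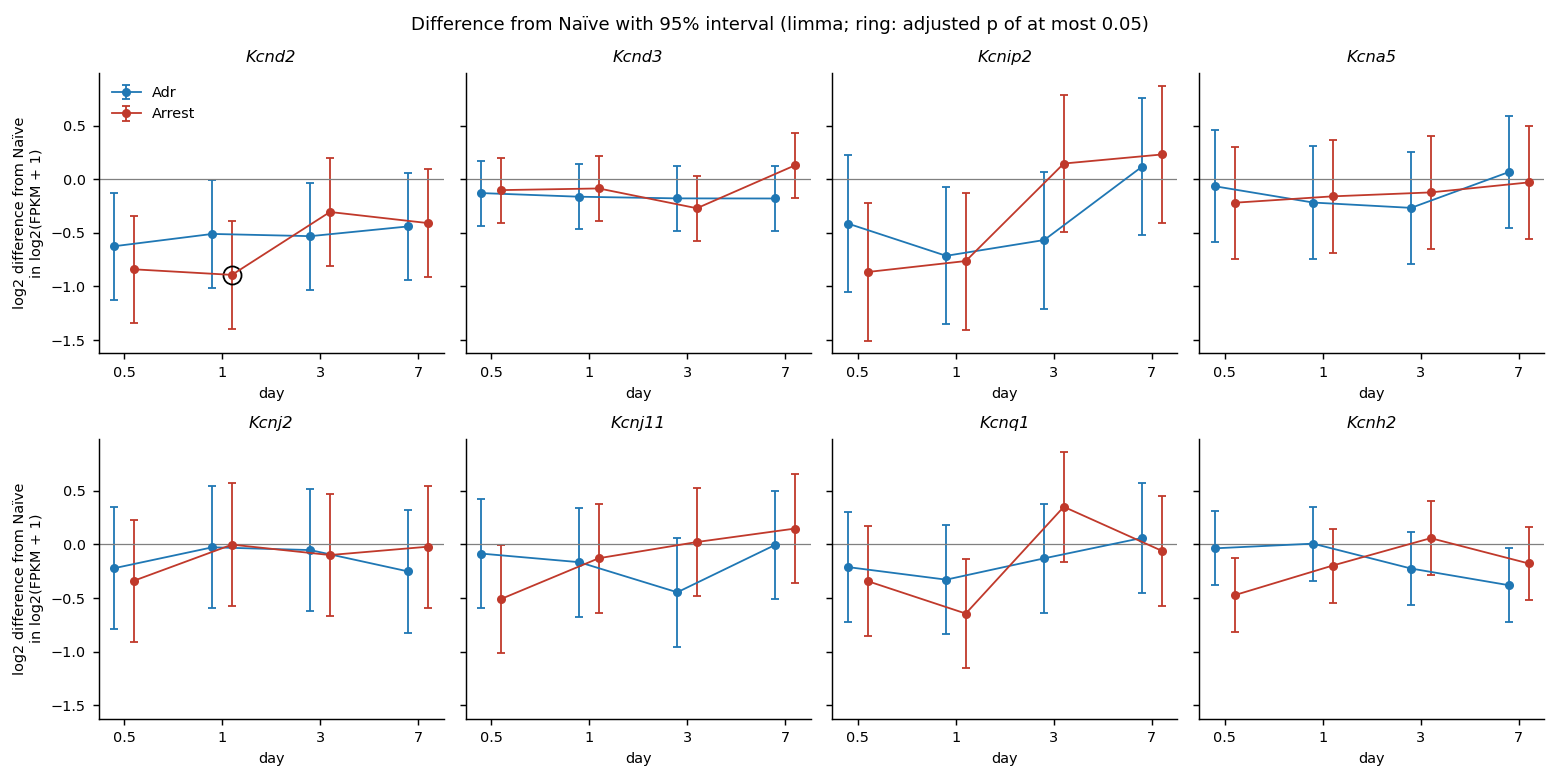
Difference from Naïve in log2(FPKM + 1) (y axis) for each gene in Adr (blue) and Arrest (red) at each day (x axis, evenly spaced), with 95% intervals from the limma fit of all 37 libraries. The ring marks the 1 difference that passed, Kcnd2 in Arrest at 1 day, and the intervals of the arms overlap at every day.

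Whether arrest added to adrenaline was tested directly by comparing the arms at the same day. None of the 8 genes passed with all libraries on any of the 4 days, in order of time beside 0%, 0%, 0% and 0.00603% of all genes, or without Adr replicate 3 at 3 days, beside 0% at each day. At an unadjusted p of 0.05, 1, 0, 1 and 0 of the 8 genes were reached, beside 3.87%, 6.59%, 5.37% and 2.53% of all genes. Kcnd2 differed by -0.22 at 0.5 days (SE 0.26, 95% interval -0.74 to 0.31) and by -0.38 at 1 day (SE 0.26, interval -0.91 to 0.15, limma adjusted p = 0.831). Kcnip2 differed by -0.45 at 0.5 days (SE 0.33, interval -1.12 to 0.22), and its means at 1 day were 22.2 FPKM in Arrest and 22.8 in Adr.

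The 2 gene comparisons between the arms at an unadjusted p under 0.05 were Kcnh2 at 0.5 days and Kcnip2 at 3 days. Kcnh2 was 8.75 ± 1.62 FPKM in Arrest and 12.1 ± 1.60 in Adr, a difference of -0.44 (SE 0.18, limma adjusted p = 1.0). Kcnh2 and Kcnj11, 2 of the 8 genes, had all 4 Arrest libraries below all 4 Adr libraries at 0.5 days, beside 1.9% of all tested genes. Kcnj11 held 19.5 to 25.2 FPKM in Arrest and 29.1 to 31.7 in Adr. Kcnip2 at 3 days differed by 0.71 (SE 0.33, adjusted p = 0.907), and without Adr replicate 3 this was 0.26 (adjusted p = 0.978).

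At an unadjusted p of at most 0.05 against Naïve, 1, 2, 1 and 1 of the 8 genes were reached in Adr hearts in order of time, beside 14%, 14.7%, 13.9% and 6.17% of all genes. These were Kcnd2, then Kcnd2 and Kcnip2, then Kcnd2, then Kcnh2. In Arrest hearts 4, 3, 0 and 0 were reached, beside 18.1%, 21.7%, 13.7% and 5.14%. The 4 at 0.5 days were Kcnd2, Kcnip2, Kcnj11 and Kcnh2, and the 3 at 1 day were Kcnd2, Kcnip2 and Kcnq1. Between 1 and 7 days 2 genes were reached in Arrest, Kcnip2 and Kcnq1, beside 14.8%, and 2 in Adr, Kcnip2 and Kcnh2, beside 9.67%.

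Without Adr replicate 3 at 3 days, 3 of the 8 genes passed in Arrest at 0.5 days, namely Kcnd2, Kcnip2 and Kcnj11, beside 5.5% of all genes. Kcnd2 alone passed at 1 day, beside 10.4%. None passed in Arrest at 3 and 7 days, beside 1.14% and 0%, or in Adr on any day, in order of time beside 1.43%, 2.53%, 0% and 0%. This library belongs to none of the groups in the calls it changed. The differences themselves were the same in both fits, and the spread that all groups share in the model was smaller without it, as for Kcnip2 in Arrest at 0.5 days at -0.87.

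Of 32 other potassium channel subunits, 21 passed the filter, and 4 of these fell in Arrest at 1 day while none rose, beside 7.11% of all tested genes that passed there. In the 13 other comparisons none passed with all libraries. Without Adr replicate 3 at 3 days, Kcna1 (-0.59, limma adjusted p = 0.0469) and Kcnj3 (-0.75, adjusted p = 0.0207) also passed in Arrest at 0.5 days. In that fit Kcnn2, a small-conductance calcium-activated channel, was the fifth to pass at 1 day (-0.47, adjusted p = 0.0383), and Kcnk3, the leak channel TASK-1, was lower in Arrest at 1 day than at 7 days (-0.65, adjusted p = 0.00787). Kcnj3 and Kcnj5, which together form the acetylcholine-gated inward rectifier best known in atrial and nodal cells, fell by 0.89 (limma adjusted p = 0.0209) and 0.84 (adjusted p = 0.0422). Kcnj3 held 9.49 to 13.2 FPKM in Naïve and 4.67 to 9.03 in Arrest at 1 day, without overlap.

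Kcnj5 held 10.3 to 13.5 FPKM in Naïve and 4.11, 6.02, 4.72 and 11.7 in Arrest at 1 day, where replicate 4 was again the library within the Naïve range. Kcnv2, a silent subunit that modifies other Kv channels, held 0.658 to 1.35 FPKM against 1.68 to 4.07 in Naïve and fell by 0.97 (limma adjusted p = 0.0375). Kcna1, a Kv1 pore best known in neurons, was rare, with means of 0.158 FPKM in Arrest and 0.889 in Naïve, and fell by 0.64 (adjusted p = 0.0238). Its ranges overlapped, at 0.0541 to 0.291 FPKM in Arrest at 1 day and 0.254 to 2.12 in Naïve. Naïve replicate 4 held the 2.12, and the next highest Naïve library held 0.902. Omission of single libraries ended some of these calls. For Kcnj3 this was so without Arrest replicate 1, 2 or 3, and for Kcna1 without Arrest replicate 1 or 2 or Naïve replicate 4, with an adjusted p of up to 0.081 and 0.0749. For Kcnj5 the call was kept only without Naïve replicate 3 or Arrest replicate 4, and for Kcnv2 only without Naïve replicate 1 or 3 or Arrest replicate 4, with an adjusted p of up to 0.168 and 0.115.

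Of 17 accessory subunits, 8 were tested, and Abcc9 was the one that passed, in Arrest at 0.5 and 1 days and between 1 and 7 days, where 3.2%, 7.11% and 1.88% of all genes passed. It encodes SUR2, the sulphonylurea receptor that joins Kir6 pores in cardiac and vascular ATP-sensitive channels. Naïve libraries held 37.6, 35.3, 32.5, 26.3 and 35.2 FPKM. Arrest libraries held 15.5, 12.3, 17.8 and 19.3 at 0.5 days and 11.98, 14.5, 13.96 and 17.3 at 1 day. All 8 were below every Naïve library, and by 7 days the range was 25.6 to 36.5.

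Abcc9 fell by 1.01 in Arrest at 0.5 days (SE 0.24, limma adjusted p = 0.019) and by 1.16 at 1 day (adjusted p = 0.00371), and it was lower at 1 than at 7 days, with a difference of -1.06 (adjusted p = 0.0252). The call at 1 day was kept without any 1 of the 9 libraries compared. The call at 0.5 days was lost without Arrest replicate 2 (adjusted p = 0.0906), and that between 1 and 7 days without any 1 of 6 of the 8 libraries, with an adjusted p of up to 0.0977. In Adr at 0.5 and 1 days, Abcc9 was below every Naïve library as well. It held 14.4 to 20.8 FPKM at 0.5 days, a difference of -0.79 (adjusted p = 0.124, and 0.00816 without Adr replicate 3 at 3 days). At 1 day it held 15.1 to 20.9 FPKM, a difference of -0.88 (adjusted p = 0.0737, and 0.00267 without that library). Its partner Kcnj11 was at 91.1% of Naïve in Arrest at 1 day, when Abcc9 was lowest.

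**Figure D4:**
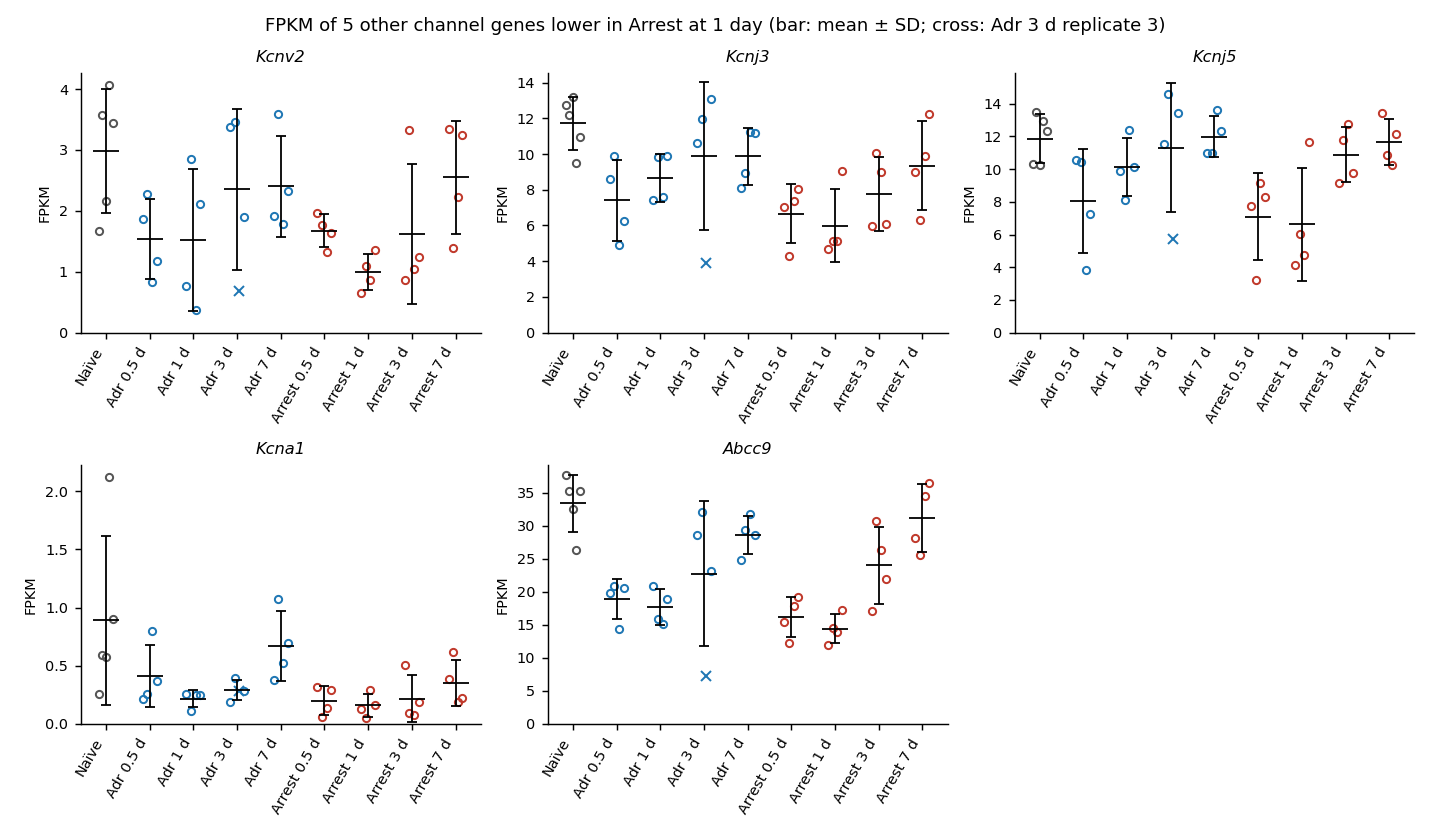
FPKM (y axis, from 0) in each library by group (x axis) for 4 other pore or modifying subunits and for Abcc9, which passed the test in Arrest at 1 day. Symbols are as in the plot of the 8 genes. The 4 Abcc9 libraries of Arrest at 1 day, 11.98 to 17.3 FPKM, lie below all 5 Naïve libraries.

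Among 10 transcription factors of ventricular channel genes, all tested, Mef2c was the one that passed, beside 3.2% and 7.11% of all genes at 0.5 and 1 days. This muscle factor fell by 0.54 in Arrest at 0.5 days (adjusted p = 0.0448) and by 0.58 at 1 day (adjusted p = 0.0175). Among 11 anchoring and trafficking genes, 1 passed, in Arrest at 1 day beside the same 7.11%. It was Cav3, the caveolin of muscle, which rose by 0.81 (adjusted p = 0.0197), from 28.5 to 50.6 FPKM in Naïve to 49.0 to 93.3. At 1 day both calls were lost without Naïve replicate 5 or Arrest replicate 3, with an adjusted p of up to 0.0918 for Mef2c and 0.103 for Cav3, and Mef2c at 0.5 days was lost without any 1 of 6 of the 9 libraries. Of 11 other fits, 7 also lost Mef2c at 0.5 days. At 1 day, fits of the compared groups alone, with a replicate block and with the description number lost both genes, and quantile normalization lost Cav3. The lists of accessory subunits, factors and anchoring genes had no other call in the 14 comparisons with all libraries. Without Adr replicate 3 at 3 days, Calm2, a calmodulin gene, was also called in Arrest at 1 day (0.40, limma adjusted p = 0.0389). Between Arrest at 1 and 7 days, Cav3 was called higher at 1 day in that fit (0.80, adjusted p = 0.0221) and Akap9, the anchor yotiao, lower (-0.40, adjusted p = 0.0366).

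Other measures differed between the same groups. None of 8 cardiomyocyte markers passed in any comparison with all libraries, and without Adr replicate 3 at 3 days Ryr2 alone did, in both arms at 0.5 and 1 days, in Arrest at 3 days and between Arrest at 1 and 7 days. Their summed FPKM was 13440 to 15910 in Naïve, 11590 to 16630 in Arrest at 0.5 days and 15840 to 18560 at 1 day. Of the 5 endothelial markers, Kdr fell at 0.5 and 1 days, Cdh5 fell at 1 day and Fabp4 rose at 1 day, and their sum was 259 to 298 in Naïve, 279 to 499 at 0.5 days and 217 to 592 at 1 day. Of the 5 mural markers, which mark vascular smooth muscle and pericytes, Myh11 fell by 0.90 in Arrest at 1 day (limma adjusted p = 0.0229) and by 1.09 in Adr at 1 day (adjusted p = 0.0328). Its mean was 5.72 FPKM in Naïve, 2.69 in Arrest and 2.20 in Adr, and the mural sum was 195 to 295 in Naïve, 171 to 189 in Arrest at 0.5 days and 188 to 251 at 1 day. The atrial sum was 13.8 to 32.4 in Naïve. In Arrest it was 16.8 to 73.2, 32.7 to 72.7, 11.8 to 135.4 and 16.9 to 255.5, in order of time. In Adr it was 17.1 to 85.2, 30.0 to 693.3, 23.8 to 485.3 and 29.15 to 197.7. Without replicate 3, Adr at 3 days reached 32.7. Neuronal markers summed to at most 1.40 in Naïve and in Arrest at 1 day. The clock genes Nr1d1 and Dbp fell in Arrest at 0.5 days, when the sum of 12 clock genes was 47.9 to 69.2 against 71.9 to 110 in Naïve. In Naïve, Arrest at 0.5 days and Arrest at 1 day, neutrophil markers summed to 0 to 9.74, 3.60 to 32.2 and 5.81 to 19.3. Monocyte and macrophage sums were 265 to 483, 285 to 437 and 254 to 400, and fibroblast sums 175 to 241, 216 to 238 and 253 to 332. Red blood cell sums were 1697 to 3951, 1545 to 2097 and 1563 to 1719. No marker of these lists passed with all libraries. The part of all these measures in the channel results was not tested.

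Gene length moved with the groups as well. The rank correlation, across genes, of a library's deviation with gene length had a median of 0.225 in Naïve, 0.00645 in Arrest at 0.5 days and -0.056 at 1 day. With this trend removed, Kcnd2 in Arrest at 1 day kept its call (-0.84, limma adjusted p = 0.0421), as did Kcnj3, Kcna1, Abcc9 and Cav3. Kcnv2 (-0.92, adjusted p = 0.0604), Kcnj5 (-0.80, adjusted p = 0.0653) and Mef2c (-0.36, adjusted p = 0.16) lost theirs. With the description number as a covariate, none of the 4 subunits, Abcc9, Mef2c or Cav3 passed in Arrest at 1 day, where Kcnj3 was at -0.22 (adjusted p = 0.833) and Abcc9 at -0.75 (adjusted p = 0.356). That covariate was the one setting, among those using all compared libraries, that ended the Abcc9 calls at 0.5 days (-0.87, adjusted p = 0.063) and between 1 and 7 days (-0.81, adjusted p = 0.203).

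Across the 36 libraries without Adr replicate 3 at 3 days, the 8 genes varied together to different degrees. Pearson correlations of log2(FPKM + 1) between pairs ran from -0.027 for Kcnd3 with Kcnq1 to 0.669 for Kcnip2 with Kcnj11. Kcnd2 had 0.612 with Kcnq1, 0.605 with Kcnj2 and 0.383 with Kcnip2. Among 11541 other genes with a mean of at least 1 FPKM, those most like Kcnip2 were Pabpc4 (0.892) and Dynll2 (0.855), and those most like Kcnd2 were Nebl (0.812) and Gm50321 (0.81). For Kcnj11 these were Osbp2 (0.746) and Fem1a (0.738), and for Kcnq1 they were Ak4 (0.749) and Kmt5a (0.744). For Kcna5 they were Pnkd (0.699) and Hdac5 (0.693), for Kcnh2 Mfsd13a (0.675) and Washc1 (0.655), for Kcnj2 Trim65 (0.621) and Zfp266 (0.605), and for Kcnd3 Snupn (0.62) and Fam193a (0.57). The libraries share groups, depth and the length trend, so these values describe the libraries and carry no test.

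The deposited table places Kcnd2 (ENSMUSG00000060882) at chr6:21215502-21729804 and Kcnd3 (ENSMUSG00000040896) at chr3:105359646-105581318, both on the plus strand. Kcnip2 (ENSMUSG00000025221) is at chr19:45780278-45804500 and Kcna5 (ENSMUSG00000045534) at chr6:126509514-126512375, both on the minus strand. Kcnj2 (ENSMUSG00000041695) is at chr11:110956990-110967647 on the plus strand and Kcnj11 (ENSMUSG00000096146) at chr7:45743377-45750188 on the minus strand. Kcnq1 (ENSMUSG00000009545) is at chr7:142660099-142980779 on the plus strand and Kcnh2 (ENSMUSG00000038319) at chr5:24524587-24556602 on the minus strand. All are protein-coding genes. The table names no build, and 2.92% of 52125 shared gene identifiers had the same start and end as in GRCm38, so these positions are not on the build of the promoters. Kcnd3 and Kcnh2 also overlap a gene on the other strand, Kcnd3os and Gm15589.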

How the data were processed

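Left ventricular RNA was sequenced with paired reads in 37 libraries. FastQC and HISAT2 were used upstream. The authors deposited 1 table of FPKM values, 1 column per library with 0 columns unused here, with gene lengths. The counting tool, strand and build are not given in the sources used here. FPKM times length was a whole multiple of 1 fragment (tolerance 0.01) in 100% of values, which gave fragments per gene. A median-ratio factor of 1.0131 was shared by all libraries, so no rescaling was done.

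Genes reaching 0.5 FPKM in 4 or more libraries entered the fit on log2(FPKM + 1) with 1 mean per group (limma 3.58.1 with a mean-variance trend, R 4.3.3), after a test on simulated data, with Benjamini-Hochberg adjustment within each comparison. A fold is thus understated for low genes. Groups came from the sample labels, which do not name 1 mouse per library, so p-values measure the spread between libraries. The paper excluded 1 Adr sample at 3 days without naming it, and all were kept. Replicate numbers did not pair libraries (56 pairs, correlation over 0.1 in 1). Alternatives were the scaling, pseudocount (0.1), filters, length trend (loess span 0.5), 2-group fits, replicate block, description number, voom and omission of each library. The 8 genes and all lists were chosen with earlier results of these data known, and the genes named are the members of the 4 channel-related lists past the threshold with all libraries, apart from 1 not reported here, and the 2 genes most like each of the 8. Others named were chosen after their values were seen. Figures used matplotlib 3.10.9.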

Additional observations from a re-analysis of the deposited data

Results flagged for a closer look

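In 8 of 72 gene and group combinations, 1 library was far from the others of its group by Dixon's criterion at 95%, where chance gives about 1 in 20. Kcnd2 was 3.012 FPKM in Naïve replicate 4 (others 5.346 to 5.864), 3.867 in Arrest replicate 4 at 1 day (others 1.682 to 1.923) and 2.52 in Arrest replicate 1 at 7 days (others 3.772 to 3.97). Kcnq1 was 4.869 in the same Naïve replicate 4 (others 6.838 to 7.737). Kcna5 was 7.818 in Naïve replicate 5 (others 12.43 to 14.44) and 18.79 in Adr replicate 2 at 7 days (others 10.87 to 11.13). Kcnj2 was 1.75 in Adr replicate 3 at 3 days (others 4.587 to 5.126), and Kcnh2 was 9.958 in Arrest replicate 4 at 3 days (others 13.96 to 14.3).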

How the results depend on the processing

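In Arrest at 1 day, the count of the 8 genes past the threshold went from 1 to 0 with a replicate block, with the description number as a covariate and with voom, and ranged from 0 to 2 when 1 library was left out (0 without Arrest replicate 1, 2 or 3, and 2, Kcnd2 and Kcnq1, without replicate 4). A fit of these groups alone called 1 gene, Kcnip2 in place of Kcnd2. In Arrest at 0.5 days, the count went from 0 to 1 with a minimum mean of 1 FPKM (Kcnd2) and in the 2-group fit (Kcnip2), and ranged from 0 to 3 when 1 library was left out (3 without Adr replicate 3 at 3 days, 1 without Naïve replicate 4 or Arrest replicate 3). Between Arrest at 1 and 7 days it went from 0 to 1, Kcnip2, when scaled by counted fragments and in the 2-group fit, and ranged from 0 to 1 when 1 library was left out (1 without Adr replicate 3 at 3 days). The other 11 counts stayed as reported. With the replicate block, Kcnd2 in Arrest at 1 day was -0.87 (adjusted p = 0.0565), and no other call was changed by it among the 8 genes. The replicate numbers do not pair libraries. Kcnd2 in Adr at 3 days was reversed to 0.0904 with the description number as a covariate, and its difference between the arms at 0.5 days ranged from -0.3613 to 0.0113 when 1 library was left out, the highest without Arrest replicate 2. Among the 21 gene differences examined here, 407 of 409 refits kept the direction. The cause of the 2 reversals was not tested. These 21 were mainly differences at an unadjusted p of at most 0.05, refitted in nearly the same libraries. Their kept directions were thus largely fixed by that choice and are no check. In the other 91, of at most 0.57 in size, 143 of 1767 refits changed sign, so their directions are not firm. None of the 72 levels moved by more than 1 SD with the median or without Adr replicate 3. Neither change can move a mean that far, so this is no check of the levels. Counting error alone reached 11.5% for Kcnd3 in its lowest library.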
